A study of Mus musculus with 8 samples.

Results

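Potassium channel genes were followed as 1 family in the stomach corpus of control mice and of mice carrying a modified allele of Prkaca, which encodes a catalytic subunit of protein kinase A (PKA). The family was taken as every protein-coding gene of the count table whose name starts with Kcn followed by letters and a number. Kcne2, Kcnq1, Kcnj15 and Kcnj16, genes linked to potassium recycling in the acid-secreting parietal cell, were left out. This gave 89 genes of 54532 in the table. A summed count of at least 100 reads over the 8 libraries was reached by 53 of them, which are called measured below.

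The corpus is the acid- and pepsinogen-secreting body of the stomach. All 8 mice were on a mixed C57BL/6 and CD1 background and carried 1 copy of Six2-Cre (Six2-Cre+/-), a recombinase driven from Six2 sequences. The 4 controls were PKAcaR wt/wt, and the 4 mutants carried 1 floxed copy (PKAcaR fl/wt), an allele whose product, after Cre recombination, is known to escape control by cyclic AMP. Controls and mutants thus shared the Cre and differed in the allele. No treatment was given, and age, sex and litter are not in the labels. The labels do not say which corpus cells Cre reached, so the mutant libraries are whole tissue that may hold recombined and unrecombined cells.

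Potassium channels let potassium leave or enter cells along its gradient and so set the membrane potential. Voltage-gated channels open on depolarisation, calcium-activated channels respond to calcium, inward rectifiers hold the resting potential, and tandem-pore (K2P) channels carry a background leak. Auxiliary subunits carry no current of their own and alter the gating or surface level of the pore-forming subunits. In the stomach such channels shape contraction of the muscle wall, firing of enteric neurons, secretion by endocrine cells and, in epithelial cells, the potassium exit that accompanies ion secretion.

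The libraries held 18184281 to 23814720 counted reads. Levels are given as CPM, the reads of a gene scaled to a common library size with TMM factors. A floor of 3 reads was worth 0.179 to 0.197 CPM in controls and at most 0.129 CPM in mutants, and it covers counting error only. Prkaca, the gene the allele alters, had a mean of 80.0 ± 4.04 CPM over the controls and 37.8 ± 1.86 over the mutants (SD, n = 4; log2 fold change -1.08, SE 0.085, adjusted p = 0.0006, edgeR quasi-likelihood test). The counts cannot tell the modified from the unmodified copy, so this value does not check the allele. Defining corpus markers were present in controls, with Atp4a, the proton pump, at 9763 to 13058 CPM. In mutants Atp4a was at 4.41 to 1443 CPM. Mutant 2 stood apart from the other mutants. Its log2 CPM values correlated with theirs across genes at 0.839 to 0.881, whereas the controls correlated with each other at 0.978 to 0.985. Its summed fibroblast markers (4 genes) were at 11943 CPM, against 491 to 614 in controls and 553 to 809 in the other mutants. Col1a1 alone was 10830 CPM of that sum. Dcn, Pdgfra and Lum were at 678, 233 and 201 CPM there, against control means of 222, 31.5 and 34.7. In mutant 2 the 5 endothelial markers summed to 880 CPM, against 162 to 200 in controls and 123 to 131 in the other mutants. Results are therefore given with and without mutant 2. In these bulk libraries fewer cells of a type and less RNA per cell cannot be told apart.

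With all 8 libraries, 15 of 51 tested members fell and 2 rose (edgeR, quasi-likelihood; p adjusted by Benjamini-Hochberg over 15862 genes, threshold 0.05). Among all genes tested, 10.8% were lower and 9.39% were higher, so 29.4% of tested members were lower and 3.92% higher against those shares. The members' median log2 fold change, mutant over control, was -0.60, beside 0.07 over all genes tested. In CPM, all 4 mutants lay below all 4 controls for 21 measured members and above them for 2, where the shares over all tested genes were 16.1% and 14.2%. Without mutant 2, 27 members were lower and 5 higher of 51 tested, beside 18.3% and 15.2% of all genes. All 17 calls made with 8 libraries were among these 32. Scaling by column totals instead of TMM moved the median of all genes from 0.07 to 0.76. There 11 members were higher and 13 lower, beside 59.3% and 4.56% of all genes. None of the 17 called members changed sign under that scaling, though Kcns3 and Kcnab3 lost their calls there. DESeq2 called 3 members higher and 21 lower of 53 measured, beside 12.2% and 12.6% of the genes to which it gave an adjusted p. Members without one, among them Kcnma1, Kcnj8 and Kcnq3, were counted as not called. Without control 3 the test called 2 and 10 (4.32% and 6.23% of all genes), and with the replicate number as a block 2 and 13 (4.71% and 6.79%). Without control 3 and mutant 3, the libraries with squamous transcripts described below, it called 2 and 10 (3.67% and 5.14%). The calls of Kcns3, Kcnh6, Kcnk16, Kcnip2 and Kcnab3 ended there (adjusted p = 0.10, 0.0520, 0.0569, 0.101 and 0.129).

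**Figure D1:**
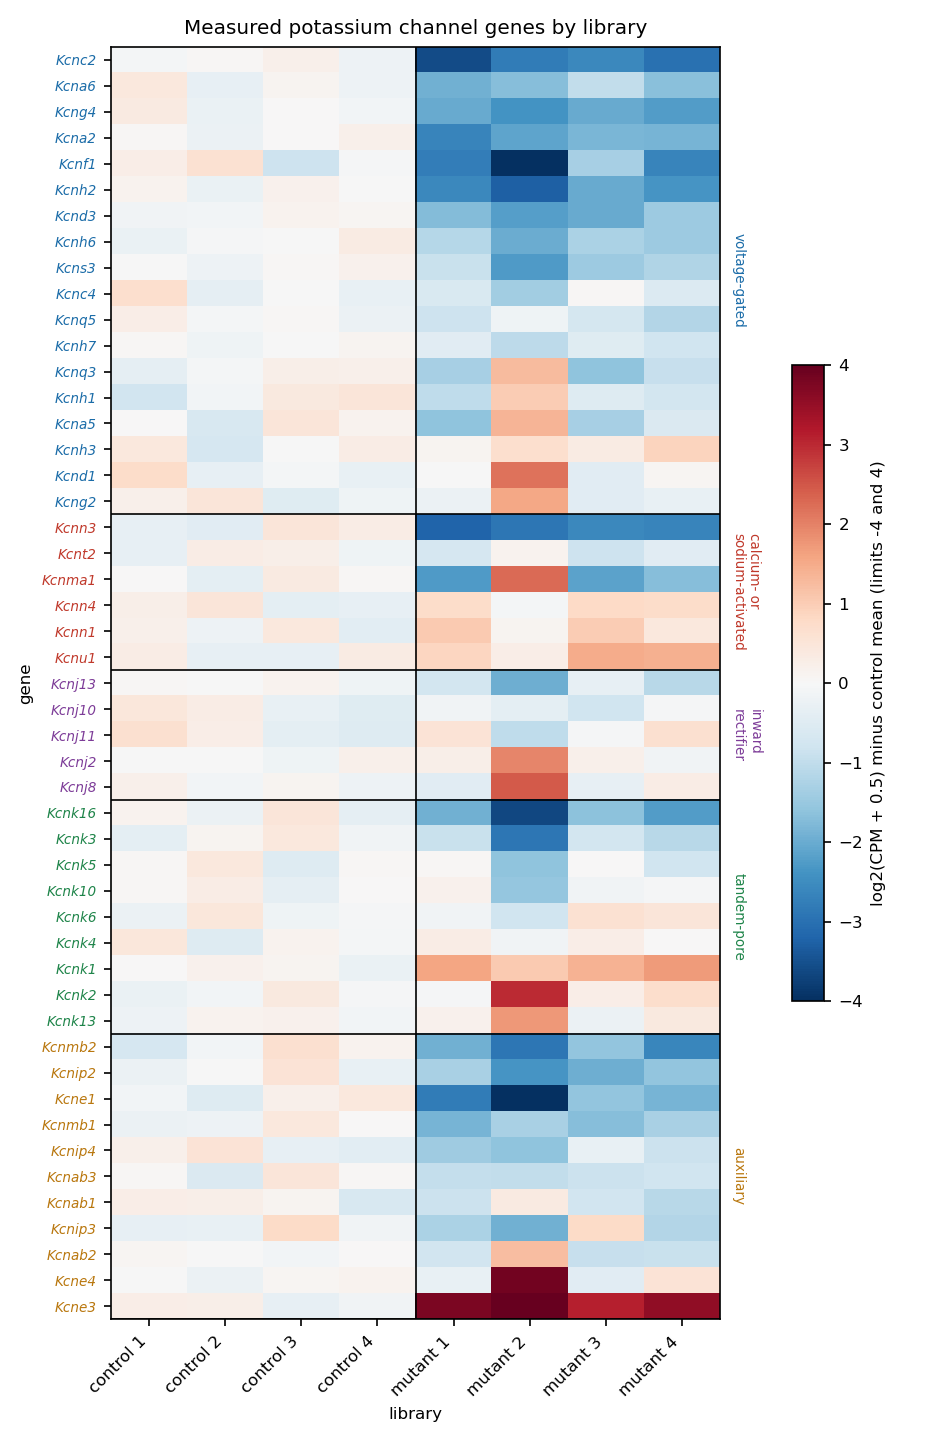
Each row is 1 of 49 measured potassium channel genes, each column a library, and colour is log2(CPM + 0.5) minus the mean of the 4 controls, with the scale ending at -4 and 4. Rows are grouped by channel class and ordered by log2 fold change. Most voltage-gated rows are blue in all 4 mutants, and Kcne3 and Kcnk1 are red in all 4. Mutant 2 is far redder than the other mutants in rows such as Kcnma1, Kcne4 and Kcnk2.

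The order of levels within the family changed. Measured per gene length, in the authors' FPKM, the highest genes in controls were Kcnn4 (11.0 ± 3.23), Kcnk1 (10.9 ± 1.43), Kcnk6 (10.5 ± 2.47) and Kcnk3 (10.3 ± 2.56), and these neighbours differed by less than their SDs. In mutants Kcne3 had the highest mean FPKM (41.9 ± 50.4), a mean carried by mutant 2 at 117, ahead of Kcnk1 (30.1 ± 5.61) and Kcnn4 (16.1 ± 4.00). Without mutant 2 the order was Kcnk1 (32.5), Kcnn4 (18.1) and Kcne3 (16.8). Kcne3 thus moved from rank 20 of 53 in controls to rank 1, or to rank 3 without mutant 2. Kcne1 moved the other way, from rank 6 to rank 16, and Kcnn3 from rank 16 to rank 39. The summed FPKM of the 53 genes was 102 to 115 in controls, 118 to 124 in mutants 1, 3 and 4, and 235 in mutant 2.

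**Figure D2:**
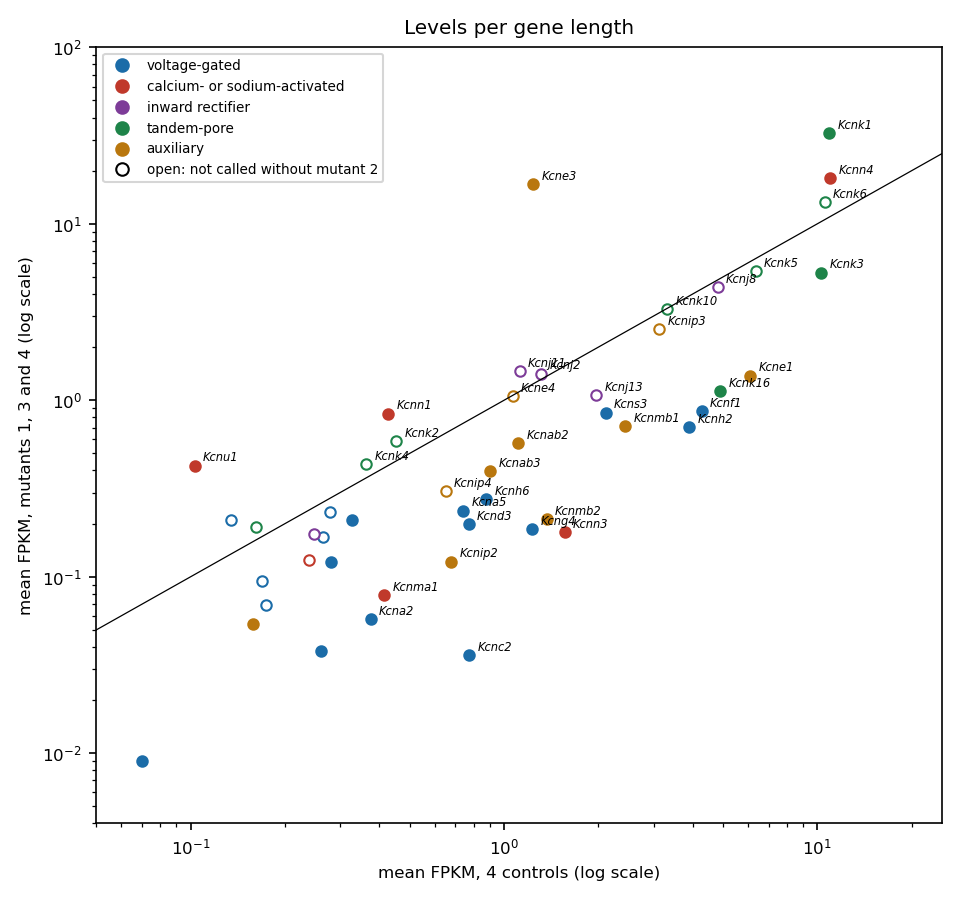
Mean FPKM of 49 measured genes in the 4 controls (x axis) and in mutants 1, 3 and 4 (y axis), both on log scales, with the line of equal levels. Filled points passed the edgeR test without mutant 2 and colours give the channel class. Kcne3 lies far above the line, Kcnk1 and Kcnn4 lie highest, and most called genes lie below the line.

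Among voltage-gated genes, silent subunits included, 9 of 21 tested members fell and none rose (16 fell without mutant 2). Kcnh2, the ERG channel that repolarises heart muscle and is also found in gut smooth muscle, was at 20.7, 15.5, 21.2 and 18.8 CPM in controls 1 to 4 and at 2.73, 1.51, 4.35 and 3.25 in mutants 1 to 4. The groups stood well apart, and the log2 fold change was -2.69 (SE 0.31, adjusted p = 0.0017). Kcnh2 lies on chromosome 5, 24319589 to 24351604. The related ERG gene Kcnh6 (chromosome 11, 106008124 to 106034549) was at 2.51, 2.96, 3.06 and 4.00 CPM in controls and 1.13, 0.408, 0.990 and 0.812 in mutants. It fell by 1.89 on the log2 scale (SE 0.36, adjusted p = 0.0097), a call that ended without control 3 and mutant 3 (adjusted p = 0.0520). Kcnh7, the remaining ERG gene, was at 5.02 ± 0.461 and 2.94 ± 0.646 CPM (SD, n = 4 each), with every mutant below every control. It just missed the threshold with 8 libraries (adjusted p = 0.0520) and was lower without mutant 2 (adjusted p = 0.0424).

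Kcnd3, the Kv4.3 channel of the transient A-type current, fell, as did some of its partners. Its CPM was 6.70, 6.84, 8.28 and 7.94 in controls and 1.87, 1.22, 1.46 and 2.39 in mutants (chromosome 3, 105452330 to 105674002; log2 fold change -2.09, SE 0.27, adjusted p = 0.0023). The highest mutant was well under the lowest control. Kcnip2, a calcium-binding auxiliary subunit of Kv4 channels (chromosome 19, 45791839 to 45816061), was at 1.88, 2.24, 3.57 and 1.79 CPM in controls. It was at 0.633, 0.0408, 0.215 and 0.428 in mutants, of which mutant 2 lies under the floor of 3 reads. Its log2 fold change was -2.80 (SE 0.63, adjusted p = 0.0181), and the call was lost without control 3 (adjusted p = 0.0563). Dpp6 and Dpp10, transmembrane partners of Kv4 channels that are not members by name, fell too. Mean Dpp6 was 2.505 ± 0.429 CPM over controls and 0.270 ± 0.107 over mutants (log2 fold change -3.19, SE 0.36, adjusted p = 0.0015). Dpp10 went from 0.983 ± 0.264 to 0.0214 ± 0.0428 CPM, with reads in mutant 4 alone (adjusted p = 0.0041). Kcnip3 and Kcnip4, of the same auxiliary family, were not called. Kcnip3, also known as the transcriptional repressor DREAM, was at 8.40, 8.41, 18.4 and 9.49 CPM in controls and 4.13, 2.45, 18.5 and 4.45 in mutants. Control 3 and mutant 3 were high, and they also held squamous keratin and p63 reads, with 4 squamous markers summing to 51.6 and 222 CPM against at most 1.07 in the other libraries; the part of those cells in the value was not tested. Kcnip3 was lower without mutant 3 (log2 fold change -1.60, adjusted p = 0.0284), as was Kcnip4 (-1.85, adjusted p = 0.0366). With control 3 and mutant 3 both left out, neither was called (-1.26 and -1.98, adjusted p = 0.0577 and 0.0677).

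The deepest fall of the class was in a Kv3 gene. Kcnc2, the fast Kv3.2 channel known from rapidly firing neurons (chromosome 10, 112271121 to 112467024), was at 5.20, 5.79, 6.497 and 4.78 CPM in controls and at 0, 0.367, 0.516 and 0.257 in mutants. These are 80 to 102 reads in each control and 0 to 12 in each mutant (log2 fold change -4.29, SE 0.75, adjusted p = 0.0075). Kcna2, a Kv1 channel of axons and muscle (chromosome 3, 107101146 to 107115005), was at 4.57, 3.68, 4.52 and 5.19 CPM in controls and 0.300, 0.653, 0.904 and 0.855 in mutants (log2 fold change -2.73, SE 0.37, adjusted p = 0.0028). Kcna6 (chromosome 6, 126708329 to 126740674) was at 2.19, 1.12, 1.66 and 1.25 CPM in controls and 0.0333, 0.122, 0.516 and 0.128 in mutants. Its fall of 2.96 on the log2 scale (SE 0.68, adjusted p = 0.0188) lost its call when control 1, control 3 or mutant 4 was left out (adjusted p = 0.0597, 0.0538 and 0.0598). An antisense gene covers 39.6% of the Kcna6 exons, and the counts were not stated to be stranded, so reads of the 2 cannot be told apart. Kcnc4, another Kv3 gene, was not called.

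The values of further voltage-gated genes turned on mutant 2. Kcnq3, a subunit of a neuronal potassium current, held 11 to 21 reads in controls, 0 to 7 in mutants 1, 3 and 4 and 77 in mutant 2. Its log2 fold change was -0.23 (SE 1.17, adjusted p = 0.905) with all libraries and -2.92 (SE 0.72, adjusted p = 0.0088) without mutant 2. Kcnq5 was likewise called lower without mutant 2 alone (-1.21, adjusted p = 0.0173). Kcna5, a Kv1 channel of vascular muscle, was at 1.12 to 3.06 CPM in controls, 0.333, 0.516 and 1.20 in mutants 1, 3 and 4 and 5.96 in mutant 2. It was called lower without that library (-1.65, SE 0.50, adjusted p = 0.0252), with a log2 fold change of -0.09 when it was kept.

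Silent subunits form no channel alone and modify other voltage-gated channels. Of these Kcng4 and Kcns3 passed the test with all libraries. Kcng4 (Kv6.4; chromosome 8, 119623854 to 119635680) was at 6.14, 3.81, 4.65 and 4.24 CPM in controls and 0.767, 0.490, 0.774 and 0.599 in mutants, with no overlap (log2 fold change -2.83, SE 0.29, adjusted p = 0.0013). Kcns3 (Kv9.3; chromosome 12, 11090202 to 11151056) was at 6.64, 5.72, 6.94 and 7.58 CPM in controls and 3.37, 0.979, 2.15 and 2.61 in mutants. Its log2 fold change was -1.56 (SE 0.36, adjusted p = 0.0202), and leaving out control 1, 3 or 4 ended the call (adjusted p = 0.0549, 0.0565 and 0.0533). Kcnf1 (Kv5.1) had the highest mean FPKM of the voltage-gated class. Kcnf1 was at 23.4, 29.8, 10.8 and 18.6 CPM in controls and 2.40, 0.0816, 7.49 and 2.69 in mutants. All mutants lay below all controls, but the spread within both groups was wide, and it passed without mutant 2 (-2.31, SE 0.52, adjusted p = 0.0129) or without mutant 3 (-3.57, adjusted p = 0.0333) and not with all libraries (-2.70, SE 0.89, adjusted p = 0.0652).

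Other voltage-gated genes showed no call in either fit. Kcnd1, Kcnh1 and Kcnh3 had control means of 0.777 to 1.48 CPM and groups that overlapped. Kcng2 had 112 reads in all and was not kept by the low-count filter.

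**Figure D3:**
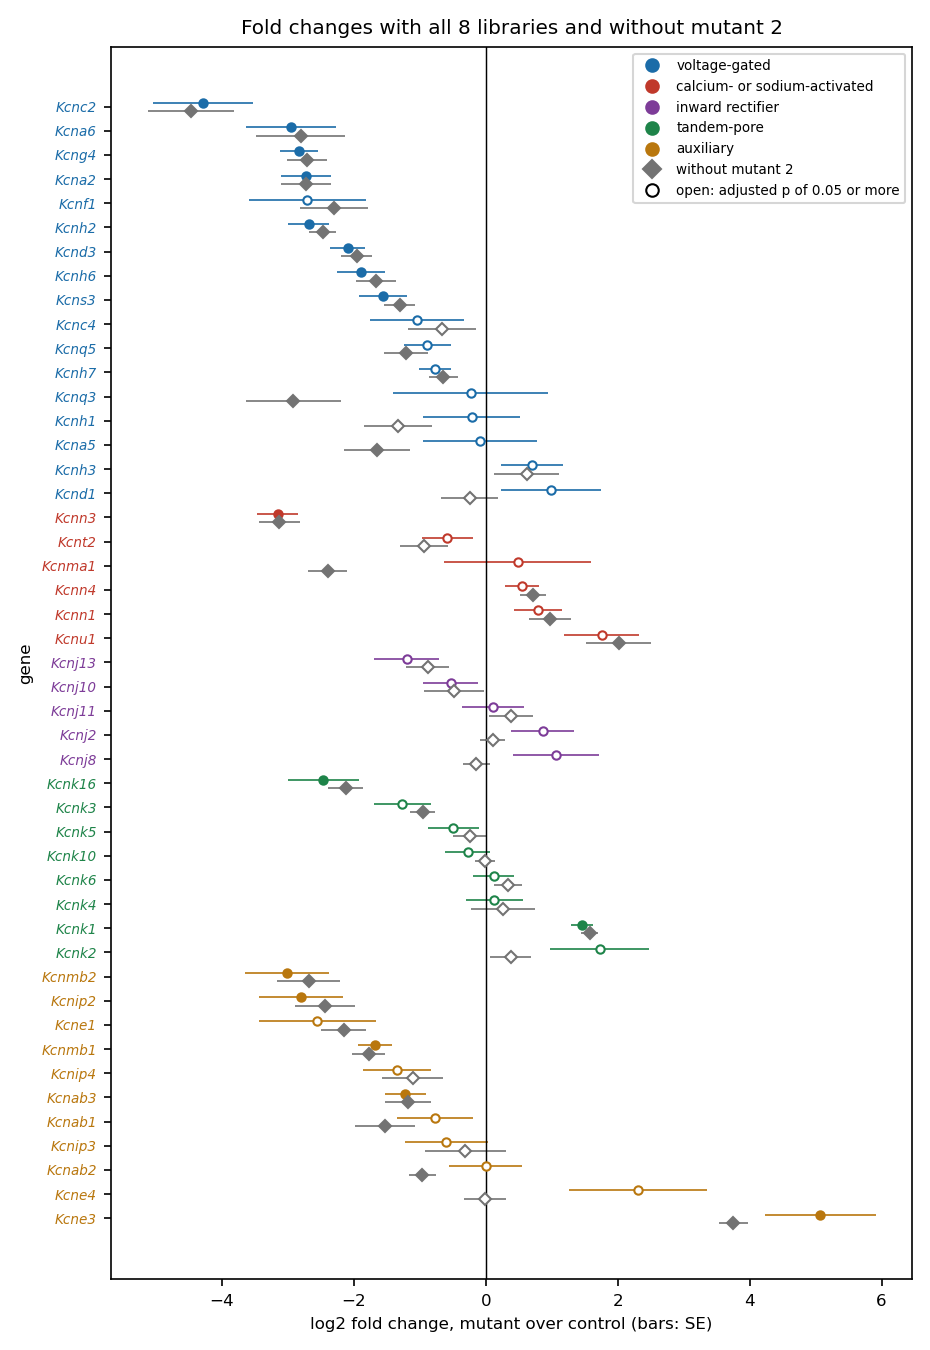
Log2 fold change, mutant over control, with its SE for 47 of the tested members, with all 8 libraries (coloured circles) and without mutant 2 (grey diamonds); filled symbols have an adjusted p under 0.05. Kcnma1 moves from 0.48 to -2.40 and Kcnq3 from -0.23 to -2.92, while Kcnh2, Kcnn3, Kcng4 and Kcnk1 hardly move.

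Calcium-activated genes split. Kcnn3 (SK3), a small-conductance channel known in the muscle wall and in neurons (chromosome 3, 89520164 to 89675132), was at 12.5, 11.4, 22.2 and 19.5 CPM in controls and at 1.27, 1.71, 2.24 and 2.14 in mutants. The highest mutant was far under the lowest control, and the log2 fold change of -3.16 (SE 0.31) had the smallest adjusted p of the family, 0.0011. Kcnn4 (KCa3.1), an intermediate-conductance channel of epithelial and immune cells, was at 64.0, 77.0, 42.2 and 43.7 CPM in controls and 91.9, 52.2, 95.8 and 91.8 in mutants. Mutants 1, 3 and 4 were above every control and mutant 2 was within their range. Kcnn4 was not called with all libraries (0.55, SE 0.26, adjusted p = 0.164) and was higher without mutant 2 (0.72, SE 0.20, adjusted p = 0.0186). Kcnn1 (SK1) was likewise called higher only without mutant 2 (0.98, SE 0.32, adjusted p = 0.0361). It was at 1.31 to 2.74 CPM in controls and 2.08 to 4.50 in mutants, with mutants 2 and 4 within the range of the controls. Kcnu1, placed in this class by name alone and known from sperm, rose without mutant 2 from a control mean of 0.387 CPM (2.01, SE 0.49, adjusted p = 0.0083). Its 157 reads in 8 libraries limit the precision.

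Kcnma1 and its beta subunits form the large-conductance BK channel, which relaxes smooth muscle by letting potassium out when calcium rises. Kcnma1, the pore, was at 6.96, 5.13, 9.04 and 7.16 CPM in controls and at 1.03, 35.5, 1.20 and 1.80 in mutants 1 to 4. Mutants 1, 3 and 4 were under every control, while mutant 2 was above all of them. The log2 fold change was 0.48 (SE 1.11, adjusted p = 0.785) with all libraries and -2.40 (SE 0.29, adjusted p = 0.0001) without mutant 2. Kcnmb1, the beta1 subunit typical of smooth muscle (chromosome 11, 33963013 to 33973641), was at 8.58, 8.61, 13.6 and 10.3 CPM in controls and 2.40, 3.84, 2.75 and 3.85 in mutants, mutant 2 included. It fell by 1.68 on the log2 scale (SE 0.25, adjusted p = 0.0042). Kcnmb2, the inactivating beta2 subunit (chromosome 3, 31902507 to 32200180), was at 2.38, 3.75, 6.56 and 4.54 CPM in controls and 0.700, 0.122, 1.03 and 0.257 in mutants (log2 fold change -3.01, SE 0.64, adjusted p = 0.0146). Lrrc26, a gamma subunit of BK in epithelial and gland cells and no member by name, was not called, at 59.6 ± 15.1 and 65.6 ± 21.4 CPM with overlapping groups. Of the sodium-activated genes, Kcnt2 was not called (-0.58, SE 0.39, adjusted p = 0.306).

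**Figure D4:**
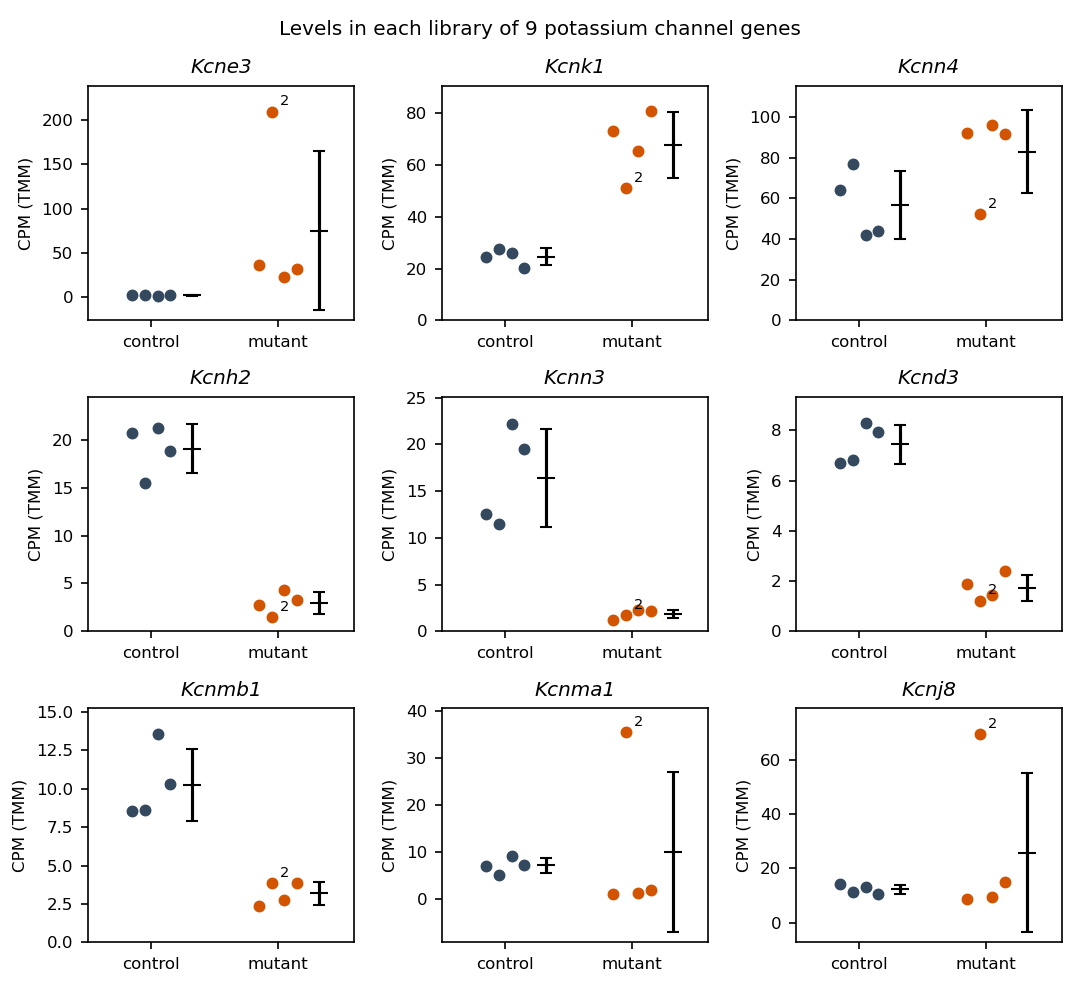
CPM in each library (points, from left to right 1 to 4 in each group) with the mean and SD of each group (bars) for 9 genes; mutant 2 is marked with its number. Kcne3 and Kcnk1 are higher in every mutant, and Kcnh2, Kcnn3, Kcnd3 and Kcnmb1 lower in every mutant. In Kcne3, Kcnma1 and Kcnj8 mutant 2 lies far above the rest.

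None of the 5 measured inward rectifier genes was called, with or without mutant 2. Kcnj8 (Kir6.1), the ATP-sensitive channel of vessel walls, was at 14.1, 11.3, 13.2 and 10.7 CPM in controls and 8.73, 69.5, 9.64 and 15.1 in mutants, with a single high library, mutant 2. Abcc9, the sulfonylurea receptor that pairs with it, followed the same pattern, at 21.8 to 36.8 CPM in controls, 15.5 to 26.3 in mutants 1, 3 and 4 and 123 in mutant 2. Kcnj2 (Kir2.1) was at 7.08, 7.03, 6.37 and 8.36 CPM in controls and 8.50, 29.3, 8.30 and 6.41 in mutants. Mutant 2 was again the one high library. Kcnj11 (Kir6.2), which sets secretion in endocrine cells together with Abcc8, was at 4.16 ± 1.79 and 4.46 ± 2.18 CPM (log2 fold change 0.10, SE 0.47, adjusted p = 0.894). Abcc8 was not called with all libraries and was higher without mutant 2 (0.55, adjusted p = 0.0313). Kcnj13 (Kir7.1), an epithelial channel, was lower in every mutant than in any control (2.52 ± 0.277 and 1.09 ± 0.676 CPM) but did not pass (-1.20, SE 0.49, adjusted p = 0.117), and Gigyf2 on the opposite strand covers 49.1% of its exons. Kcnj10, a glial and epithelial channel, was not called (-0.53, SE 0.42, adjusted p = 0.389).

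K2P channels were 3 of the 4 members with the highest control FPKM. Kcnk1 (TWIK1; chromosome 8, 125995170 to 126030685) was at 24.6, 27.4, 26.2 and 20.1 CPM in controls and 73.1, 51.0, 65.4 and 80.7 in mutants. All mutants were above all controls, and Kcnk1 rose by 1.46 on the log2 scale (SE 0.17, adjusted p = 0.0016), or by 1.57 without mutant 2. Its close relative Kcnk6 (TWIK2) was not called. Kcnk6 was at 36.5, 59.4, 38.4 and 42.1 CPM in controls and 39.1, 24.9, 66.6 and 60.9 in mutants, and the groups overlapped (0.12, SE 0.31, adjusted p = 0.811). Kcnk16 (TALK1), known from hormone-secreting pancreatic islet cells (chromosome 14, 20261376 to 20269199), was at 12.6, 9.53, 16.1 and 8.72 CPM in controls and 2.63, 0.449, 3.36 and 2.05 in mutants. It fell by 2.46 on the log2 scale (log2 fold change -2.46, SE 0.54, adjusted p = 0.0166), and the call ended on leaving out control 3 or mutant 4 (adjusted p = 0.0514 and 0.0502). Kcnk3 (TASK1), an acid-sensitive leak channel, was lower in every mutant, at 41.1 ± 10.1 and 17.1 ± 8.40 CPM. Kcnk3 was called without mutant 2 (-0.96, SE 0.19, adjusted p = 0.0026) and not with all libraries (-1.27, SE 0.43, adjusted p = 0.0722).

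The other K2P genes were not called in either fit. Kcnk5 (TASK2), an alkali-activated epithelial channel, was at 21.8 ± 5.62 and 15.5 ± 7.47 CPM, and Kcnk10 (TREK2), a stretch- and lipid-sensitive channel, at 29.3 ± 5.33 and 24.2 ± 10.01. In both, mutant 2 was the lowest of all 8 libraries. Kcnk2 (TREK1) was at 1.75 to 3.06 CPM in controls, 2.13 to 3.89 in mutants 1, 3 and 4 and 21.01 in mutant 2. Kcnk4 (TRAAK) was at 0.626 ± 0.309 and 0.685 ± 0.168 CPM. Kcnk13 had 147 reads in all and was not kept by the low-count filter.

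Among auxiliary subunits Kcne3 had the largest rise of the family. Kcne3 holds Kcnq1 channels open and is known to serve cyclic AMP-driven chloride secretion in intestinal epithelium (chromosome 7, 100176502 to 100184869). It was at 2.69, 2.63, 1.66 and 1.91 CPM in controls and 36.2, 210, 22.5 and 31.2 in mutants 1 to 4. Every mutant was far above the highest control, and mutant 2 was the highest by far. Kcne3 rose by 5.07 on the log2 scale (SE 0.84, adjusted p = 0.0059), and by 3.75 (SE 0.22, adjusted p = 2.82e-06) without mutant 2. Kcne1 (minK), another partner of Kcnq1, was at 17.8, 13.2, 22.1 and 25.8 CPM in controls and 2.30, 0.0408, 6.11 and 4.96 in mutants, where mutant 2 held 1 read. Its groups did not overlap, yet it missed the threshold with all libraries (-2.56, SE 0.89, adjusted p = 0.0749). Kcne1 was lower without mutant 2 (-2.16, SE 0.35, adjusted p = 0.0014). Kcne4, an inhibitory subunit, was at 2.37 to 3.16 CPM in controls, 1.94 to 4.36 in mutants 1, 3 and 4 and 48.1 in mutant 2, and was not called.

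Of the 3 cytoplasmic beta subunits of Kv1 channels, Kcnab3 alone passed with all 8 libraries. Kcnab3 (chromosome 11, 69326258 to 69333042) was at 2.57, 1.51, 3.69 and 2.63 CPM in controls and 1.03, 1.02, 1.16 and 1.24 in mutants. Its log2 fold change was -1.22 (SE 0.32, adjusted p = 0.0291). The call ended on leaving out control 1, 3 or 4, or mutant 1, 3 or 4 (adjusted p = 0.0727, 0.0886, 0.0680, 0.0668, 0.0534 and 0.0652). Kcnab2 was at 5.73 to 6.64 CPM in controls, 3.01 to 3.43 in mutants 1, 3 and 4 and 15.3 in mutant 2. Kcnab2 was called lower without mutant 2 (-0.96, SE 0.20, adjusted p = 0.0035), as was Kcnab1 (-1.53, SE 0.45, adjusted p = 0.0225), and neither was called with all libraries.

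Mutant 2 thus changed the result for many members. It lay above the other 7 libraries for 15 measured members, among them Kcnma1, Kcnj8, Kcnj2, Kcne4 and Kcnk2. It lay below them for 22, among them Kcnh2, Kcne1, Kcnk3 and Kcnk16. The share of all genes for which mutant 2 lay outside the other 7 libraries was not computed. These counts thus do not set the family apart from other genes. For 5 members, among them Kcnab1, Kcnab2, Kcnma1 and Kcnq3, mutants 1, 3 and 4 were below every control while mutant 2 was above every control, a pattern picked out after the values were seen.

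Markers of several cell types moved with these genes. The 10 smooth muscle markers summed to 3109 to 4080 CPM in controls and 321 to 927 in mutants, and all 10 were lower (median log2 fold change -2.21). Of 10 enteric neuron markers 9 were tested and 8 were lower (median -3.30), and of 4 enteric glia markers 2 were lower. The neuron sum was 53.6 to 75.2 CPM in controls, 3.87 to 7.61 in mutants 1, 3 and 4 and 40.8 in mutant 2. Parietal markers were lower in 5 of 6 genes and summed to 15132 to 19281 CPM in controls and 161 to 2413 in mutants. Endocrine markers were lower in 5 of 7 (1985 to 2899 CPM in controls and 107 to 521 in mutants), and chief cell markers in 2 of 4 (297709 to 532710 and 987 to 41483). All 4 tuft cell and both mucous neck markers were higher, and 2 of 4 lymphocyte markers were higher, at 1.69 to 3.70 CPM in controls and 5.25 to 47.9 in mutants. Single calls were Epcam among 4 epithelial markers (log2 fold change 1.21, adjusted p = 0.0018) and Pdgfra among 4 fibroblast markers (1.86, adjusted p = 0.0189), both higher, and Ckm, lower, among 3 tested skeletal muscle markers (-4.50, adjusted p = 0.0097). Pit cell, interstitial cell of Cajal, pericyte, endothelial and macrophage markers held no call with all 8 libraries. Without mutant 2, all 4 pit cell, 3 of 5 endothelial and 2 of 4 pericyte markers were lower, and of 3 markers of interstitial cells of Cajal 2 were lower and 1 higher. That fit also called all 9 tested enteric neuron, 3 of 4 glial, all 6 parietal, all 7 endocrine and 3 of 4 chief cell markers lower. The part of these cells in the potassium channel values was not tested.

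**Figure D5:**
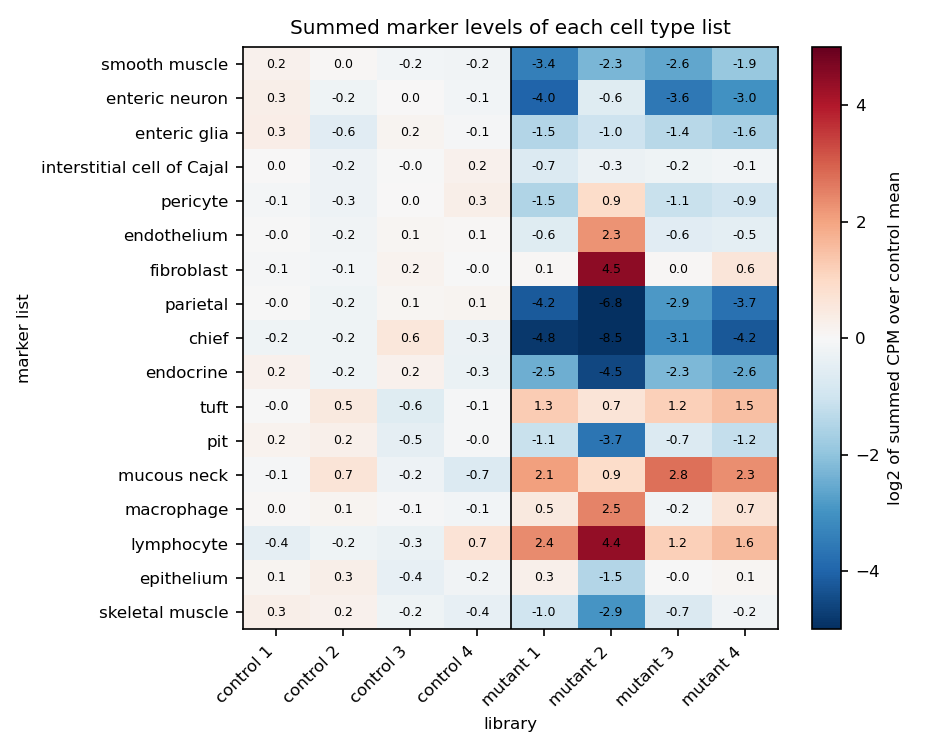
Log2 of the summed CPM of each cell type marker list over its control mean, by library. Smooth muscle, parietal, chief and endocrine lists are below the controls in all 4 mutants, whereas fibroblast, endothelial and macrophage lists are raised most in mutant 2.

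Genes that work with the channels but are not members were counted from lists. Of 11 channel partners 9 were tested, and Dpp6, Dpp10 and Amigo2, a membrane protein related to Amigo1, were lower. Mean Amigo2 was 3.61 ± 0.756 CPM over controls and 1.73 ± 0.408 over mutants (log2 fold change -1.06, SE 0.28, adjusted p = 0.0328), and its call did not hold without every library (adjusted p up to 0.0845). Slc12a2, the sodium-potassium-chloride cotransporter, was not called (0.10, SE 0.14).

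Promoter letters were searched for the cyclic AMP response element (CRE), since PKA acts on the factors that bind it. RefSeq promoters of 250 bases before to 50 after the start (GRCm38.p6) were matched to 39 of 53 measured members by symbol, giving 57 promoters. The full element TGACGTCA, searched on both strands, was in 0 of these 57 and in 1.79% of 32851 promoters in the table. Its core TGACG, also searched on both strands and part of the full element, was in 15.8% of members' promoters and 20.8% of all. The core was in 2 of 17 promoters of members called lower (11.8%) and in 0 of 3 promoters of members called higher. Those 2 were the promoters of Kcnh6 and Kcna6, with the core close to the start in each. These windows are shown with the core in capitals (in Kcna6 it reads on the opposite strand, as CGTCA), followed by those of the 2 genes that rose, where no core was in the window. Each runs 5′ to 3′ from 60 bases before to 5 after the start.
Kcnh6 (chr11:106008088-106008152, plus strand): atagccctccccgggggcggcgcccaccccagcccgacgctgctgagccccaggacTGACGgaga
Kcna6 (chr6:126740670-126740734, minus strand): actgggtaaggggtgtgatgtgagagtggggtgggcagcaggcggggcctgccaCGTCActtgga
Kcne3, upstream start (chr7:100176610-100176674, plus strand): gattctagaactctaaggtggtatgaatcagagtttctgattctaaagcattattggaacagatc
Kcne3, downstream start (chr7:100178623-100178687, plus strand): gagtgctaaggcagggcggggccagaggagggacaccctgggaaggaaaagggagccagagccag
Kcnk1 (chr8:125995042-125995106, plus strand): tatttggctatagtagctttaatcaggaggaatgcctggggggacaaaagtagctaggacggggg
A match describes these letters and shows no binding.

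Not measured, with a summed count under 100, were 36 members. These were Kcna1, Kcna3, Kcna4, Kcna7, Kcna10, Kcnb2, Kcnc1, Kcnd2, Kcng1, Kcng3, Kcnh4, Kcnh5, Kcnh8, Kcns1, Kcns2, Kcnv1 and Kcnv2 among voltage-gated genes. The calcium- and sodium-activated Kcnn2 and Kcnt1, the inward rectifiers Kcnj1, Kcnj3, Kcnj4, Kcnj5, Kcnj6, Kcnj9, Kcnj12 and Kcnj14, and the K2P genes Kcnk7, Kcnk9, Kcnk12, Kcnk15 and Kcnk18 were also under it. So were the auxiliary genes Kcne1l, Kcnip1, Kcnmb3 and Kcnmb4. Just inside the threshold lay Kcnc4 (109 reads), and just outside lay Kcnip1 (96) and Kcna4 (95). Kcnip1, a further auxiliary subunit of Kv4 channels, was at 1.75, 2.17, 0.892 and 1.01 CPM in controls and 0, 0.0408, 0.0430 and 0.0855 in mutants. Kcna4 was at 0.615 ± 0.144 and 0.561 ± 0.361 CPM.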

How the data were processed

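Polyadenylated corpus RNA was sequenced from NEBNext Ultra libraries, according to the labels' protocols. The authors deposited a table of read counts and a table of FPKM for Ensembl genes. The submitters' processing notes name CASAVA, fastp, STAR 2.5 and featureCounts but assign them no step; for build and strand setting nothing is stated in those notes. Coordinates are those of the count table, and 85 of 89 members have the same start and end in GENCODE M21 (GRCm38). The column SCI was read as control 1. By the design text the libraries come from separate animals, and within groups every pair differed beyond sampling noise (chi-square per degree of freedom at least 14.2). FPKM implied library sizes 1.00 to 1.01 times those of TMM, so it is no separate check of scaling.

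Genes passing filterByExpr were tested with edgeR 4.0.16 (R 4.3.3) by its robust quasi-likelihood test, TMM factors and Benjamini-Hochberg adjustment over 15862 genes, with a threshold of 0.05. SE is the size of the fitted coefficient over the square root of F. Alternatives were DESeq2 1.42.0, other scalings and filters, a replicate block, each library left out, control 3 and mutant 3 left out, and limma 3.58.1 on log2(FPKM + 1) or log2(FPKM + 0.1). The scripts were tested on simulated counts. Members and lists were chosen with earlier results of these data known. Values in every library were given for called members and for the 2 members of each class with the highest mean FPKM; further genes were added after their values were seen. Results for some genes are not reported here, and the plots leave them out.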

Additional observations from a re-analysis of the deposited data

Results flagged for a closer look

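Each group of 4 libraries was checked for a library far from the other 3, by Dixon's criterion of the gap over the range, in CPM and for each measured member. Of 106 groups 16 were picked out, and in 14 of the 16 the library was mutant 2. The criterion's chance rate of about 1 in 20 assumes independent groups of normally spread values. These groups share the same libraries, and no share over all genes was computed. The count is thus no result about the family. Mutant 2 was high for 13 genes. Its values were 210 CPM for Kcne3 (next mutant 36.2), 69.5 for Kcnj8 (15.1), 48.1 for Kcne4 (4.36), 35.5 for Kcnma1 (1.80), 29.3 for Kcnj2 (8.50) and 21.01 for Kcnk2 (3.89). They were 15.3 for Kcnab2 (3.43), 8.04 for Kcnd1 (1.497), 5.96 for Kcna5 (1.20), 3.14 for Kcnq3 (0.299), 2.90 for Kcnh1 (0.688), 2.37 for Kcng2 (0.333) and 1.80 for Kcnab1 (0.559). It was low for Kcnn4, at 52.2 CPM against 91.8 in the next mutant. Its fibroblast and endothelial marker sums were also the highest of all libraries, and their part in these values was not tested. The other 2 were both Kcnip3, at 18.4 CPM in control 3 (next control 9.49) and 18.5 in mutant 3 (next mutant 4.45), the libraries with squamous transcripts.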

How the results depend on the processing

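With all libraries 2 members were higher and 15 lower. Column totals gave 11 higher and 13 lower, and DESeq2 gave 3 and 21. Leaving out 1 library in turn gave 2 to 5 higher and 10 to 27 lower; the 5 and 27 came without mutant 2, and the 10 without control 3. Leaving out control 3 and mutant 3 together gave 2 and 10, with Kcns3, Kcnh6, Kcnk16, Kcnip2 and Kcnab3 no longer called. Deviations from the group mean of same-numbered libraries correlated across genes at 0.058, -0.091, 0.062 and 0.0035. Differently numbered libraries were not compared, so these values cannot settle whether the replicate number marks a shared litter. With the number as a block 2 members were higher and 13 lower, with Kcnab3 and Kcnip2 no longer called. Without mutant 2 the log2 fold changes of Kcnma1 and Kcnab2 turned negative and both were called lower. Over all fits with 1 library left out they ran from -2.40 to 0.86 and from -0.96 to 0.23. Those of Kcnj8, Kcne4 and Kcnd1 also turned negative without mutant 2 (-0.15, -0.01 and -0.25), with no call. The cause was not tested. Members near 1 CPM rest on few reads, which limits their precision.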

Other observations

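Some members lie next to each other in the genome and were measured with different outcomes. Kcnk5 and Kcnk16 are 79.6 kb apart on chromosome 14; Kcnk16 was lower in mutants (-2.46) and Kcnk5 was not called (-0.49). Whether these 2 changes differ was not tested. Kcnmb1 lies within the span of Kcnip1 on chromosome 11 (33629339 to 33993152), and both had lower counts in every mutant than in any control. Kcna2 lies between Kcna3 and Kcna10, neither of which was measured, and Kcna6 lies 61.9 kb from Kcna1, which was not measured either. Exonic bases shared with another annotated gene were found for 21 of 53 measured members.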
